A study of Mus musculus with 9 samples.

Results

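Il7r and Bcl2l11 are 2 genes of lymphoid survival, and the rows that lie on them are 2 of the 56923 rows of the count table. They were chosen by their measured difference between the HVEM-KO and Vec tumours, the first being lower and the second higher in HVEM-KO. That difference between the groups is therefore given as a description. RNA was sequenced from 9 tumours of EL4, a mouse T-cell lymphoma line. Of these, 5 tumours had the genotype Vec and 4 the genotype HVEM-KO. HVEM is the receptor encoded by Tnfrsf14. The labels give no host strain, age, day of growth, clone or batch, nor do they tie a library to an animal. Spread among libraries, and p-values built on it, may therefore be partly technical. By its title, the study addresses HVEM in lymphocytic leukaemia and the function of CD8+ T cells.

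Il7r encodes the alpha chain of the interleukin-7 receptor. With the common gamma chain it passes the IL-7 signal through JAK1 and JAK3 to STAT5, which keeps resting T cells alive, in part by raising BCL2. Bcl2l11 encodes BIM, a BH3-only protein that binds and neutralises BCL2, BCL-XL and MCL1 and so frees BAX and BAK to open the mitochondrial outer membrane. BIM is a main executioner of T cells that lose cytokine support, and it also limits the life span of B cells and myeloid cells. FOXO transcription factors are known activators of both genes.

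The names rest on an inference. The positions of the nuclear rows are displaced along the chromosome, so the locus of each row was worked out from the counts of many neighbouring rows. The row on Il7r carries the identifier of Il7r itself, ENSMUSG00000003882, on the minus strand of chromosome 15 (GRCm38, 9505788 to 9530176). Its stretch of 431 rows was fitted with a displacement of -250 bp, one step from none. At that displacement 3261 of its 4663 exonic bases lay on exons of Il7r, and at no displacement all 4663 did. No other row touched the gene.

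The row on Bcl2l11 carries the identifier of another gene, ENSMUSG00000074813. That is Gm14005, a long noncoding RNA gene also known as Morrbid, which lies beside Bcl2l11 on the minus strand of chromosome 2 (GRCm38, 128178319 to 128502765). Its stretch of 1106 rows was fitted with a displacement of -158250 bp, with a log-likelihood gain of 595 over no displacement and of 182 over the next best displacement away from it. So moved, 384 of its 4070 exonic bases lay on the last exon of Bcl2l11, beyond the coding sequence, and none lay on an annotated exon of any other gene. These 384 bases stayed on that exon at every displacement tried from -158750 to -157250 bp. At -159250 bp, also tried, only 192 bases lay on exons of Bcl2l11, and 96 of them were coding. Bcl2l11 itself (ENSMUSG00000027381) runs from 128126038 to 128162547 on the plus strand. The row under that identifier was placed on the neighbouring gene Acoxl and held 36 reads in all, against 2343 reads in the row on Bcl2l11 and 6278 in the row on Il7r. The row and the gene are on opposite strands, and strand use in the counting is not given in the sources used here, so an antisense RNA cannot be told apart. If the row had counted its own locus instead, its values would be those of Gm14005.

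The sequences below are the bases before the RefSeq start of each gene (GRCm38.p6), shown because FOXO factors act on both genes. GTAAACA, a core FOXO motif, and TGTTTAC, the same on the other strand, were searched over 250 bases. Matches are in capitals. For Il7r (chr15:9529877-9530040, minus strand) only the 164 bases outside annotated exons are printed. The whole Il7r window lies inside the annotated gene, which on this strand begins at 9530176, upstream of the RefSeq start used. For Bcl2l11 (chr2:128125788-128126037, plus strand) all 250 are printed, and they lie before the annotated gene. The motif matches and GC below therefore do not compare promoter with promoter.
Il7r: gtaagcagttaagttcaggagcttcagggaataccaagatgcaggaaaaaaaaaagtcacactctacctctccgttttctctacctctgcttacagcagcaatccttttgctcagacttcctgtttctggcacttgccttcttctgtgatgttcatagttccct
Bcl2l11: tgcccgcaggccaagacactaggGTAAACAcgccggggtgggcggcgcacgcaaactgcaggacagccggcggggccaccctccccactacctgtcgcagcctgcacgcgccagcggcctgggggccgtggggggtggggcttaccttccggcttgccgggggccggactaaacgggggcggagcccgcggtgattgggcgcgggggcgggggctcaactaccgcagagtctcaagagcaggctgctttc
The Bcl2l11 window held 1 match, which begins 227 bases before the start. The Il7r window and the window of a second Bcl2l11 start held 0. Of all 32851 RefSeq windows of this length, 3.17% held the motif. GC made up 44% of the Il7r window and 72% of the Bcl2l11 window. The RNA counts do not measure binding at either site, and neither Foxo1 nor Foxo3 had a tested row.

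Total counts ran from 5532155 to 8205620 per library, and a single read was worth 0.125 to 0.173 CPM (counts-per-million, with library sizes scaled by edgeR's TMM factors). Vec 1 and Vec 5 stood apart on the first dimension of a multidimensional scaling, at 1.36 and 1.50 against -1.22 to 0.46 for the other libraries. Results are therefore also given without them. The row deposited as Tnfrsf14 held 1 read, but another row was placed on Tnfrsf14, with 225 bp of overlap. It was at 34.4, 63.9, 39.8, 69.1 and 56.6 CPM in Vec 1 to 5 and at 37.1, 50.7, 49.5 and 48.7 CPM in HVEM-KO 1 to 4. The groups overlapped (log2 fold change -0.18 ± 0.21 (SE), edgeR's quasi-likelihood test, adjusted p = 0.761). Which part of the gene was altered is not given in the sources used here, and host cells in the tumours may also express it, so this row does not check the labels.

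The row on Il7r was at 83.0, 108.5, 203.4, 143.0 and 120.5 CPM in Vec 1 to 5. In HVEM-KO 1 to 4 it was at 37.3, 70.6, 109.9 and 71.7 CPM. Vec 3 was the highest of the 9 tumours and HVEM-KO 1 the lowest. The groups overlapped through HVEM-KO 3, which lay above Vec 1 and Vec 2, so that an HVEM-KO tumour was above a Vec tumour in 2 of the 20 possible pairs. Vec tumours averaged 131.7 ± 45.6 CPM (SD, n = 5), and HVEM-KO tumours 72.4 ± 29.7 CPM (SD, n = 4). The log2 fold change was -0.86 ± 0.30 (SE), a level 1.82-fold higher in Vec tumours. In bulk tumours, fewer cells of a type and less RNA per cell cannot be told apart. The highest tumour had 2.45 times the lowest within Vec and 2.95 times within HVEM-KO, both wider than the 1.82-fold difference between the groups. The SD of each group was smaller than the difference between the group means.

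Bcl2l11 showed the reverse difference and a narrower spread. Its row was at 23.2, 38.2, 29.8, 41.5 and 24.0 CPM in Vec 1 to 5. In HVEM-KO 1 to 4 it was at 54.9, 48.3, 61.6 and 47.4 CPM. Every HVEM-KO tumour lay above every Vec tumour, and the lowest HVEM-KO value, in HVEM-KO 4, was 1.14 times the highest Vec value, in Vec 4. Vec 1 and Vec 5 were the lowest of the 9. Vec tumours averaged 31.3 ± 8.24 CPM (SD, n = 5), and HVEM-KO tumours 53.1 ± 6.59 CPM (SD, n = 4). The log2 fold change was 0.76 ± 0.20 (SE), a level 1.69-fold higher in HVEM-KO tumours. The highest tumour had 1.79 times the lowest within Vec and 1.30 times within HVEM-KO.

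**Figure D1:**
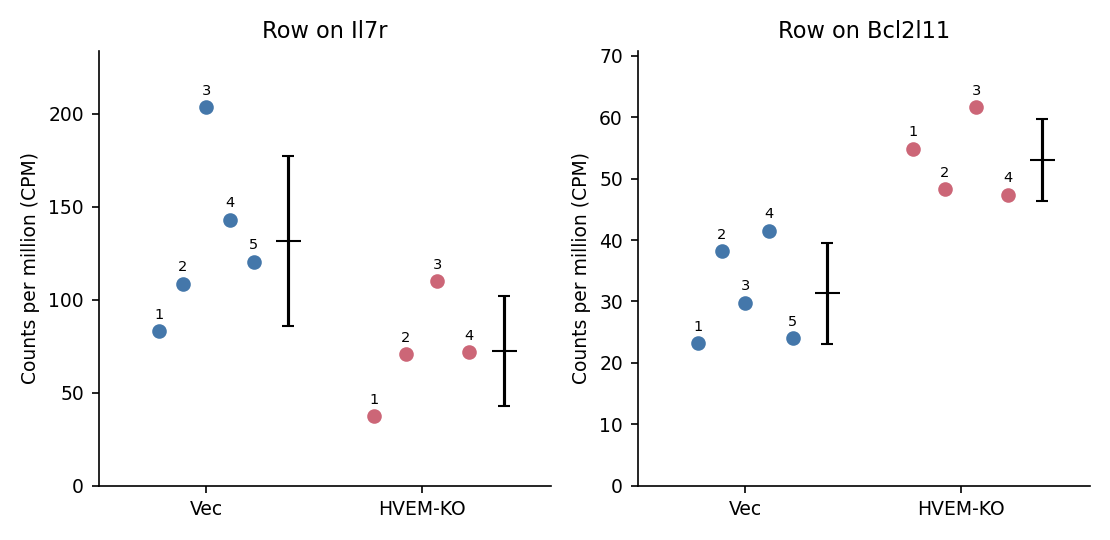
CPM of the row on Il7r (left) and the row on Bcl2l11 (right) in each tumour, numbered by replicate, with the mean and SD of each group as black bars. The Il7r values of the groups overlap, while the 4 HVEM-KO values of Bcl2l11, from 47.4 to 61.6, lie above the 5 Vec values, from 23.2 to 41.5.

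Neither row was among those called. At a false discovery rate of 0.05 edgeR called 0 of the 2 rows and 0 of all 11521 rows tested (0%), with 10.6% of rows at an unadjusted p under 0.05. DESeq2 called 0.703% of the rows and limma voom 0%, and neither tool called either of the 2. Over all rows, 1.16% had every HVEM-KO tumour above every Vec tumour, as Bcl2l11 had, and 2.93% had groups that did not overlap in either direction. A log2 fold change below 0, as for Il7r, was found in 48.0% of rows and one above 0 in 52.0%. Since this contrast chose the rows, nothing is read from these shares.

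Without Vec 1 and Vec 5 the log2 fold changes were -1.07 for Il7r and 0.54 for Bcl2l11. Leaving out 1 tumour at a time gave -1.14 to -0.63 for Il7r, the weakest without HVEM-KO 1. For Bcl2l11 it gave 0.67 to 0.88.

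The log2 ratio of the Bcl2l11 row to the Il7r row in the same library is almost free of library scaling. It was -1.82, -1.49, -2.75, -1.77 and -2.30 in Vec 1 to 5. In HVEM-KO 1 to 4 it was 0.55, -0.54, -0.83 and -0.59. The groups did not overlap in this ratio, and HVEM-KO 1 alone had more CPM in the Bcl2l11 row than in the Il7r row. The rows cover different lengths of exon, so the ratio compares tumours and not the amounts of the 2 RNAs. Its mean was -2.03 ± 0.50 (SD, n = 5) in Vec and -0.35 ± 0.62 (SD, n = 4) in HVEM-KO tumours, a difference of 1.68. This difference, too, follows from how the rows were chosen.

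Whether the rows also moved in opposite directions from tumour to tumour was asked within the groups, where the difference between the groups plays no part. The correlation there was positive over the 9 tumours, but so few tumours could not separate opposite movement from joint movement or from none. Deviations of log2(CPM + 0.5) from the group means had opposite signs in 5 of 9 tumours. Pearson's r of these deviations was 0.28 (exact permutation of tumours within groups, two-sided, n = 9, p = 0.465, adjusted p = 0.662 over 17 relations) and Spearman's rho was 0.32 (exact permutation p = 0.396). Vec 1 was low and HVEM-KO 3 high in both rows. Vec 3 was 0.69 above its group mean for Il7r and 0.03 below it for Bcl2l11. HVEM-KO 1 was 0.85 below its group mean for Il7r and 0.06 above it for Bcl2l11. These 2 tumours were the farthest from the Il7r median, and without them r was 0.69 (exact permutation p = 0.125, n = 7). Without Vec 1 and Vec 5 it was -0.15 (exact permutation p = 0.722), so its sign rests on those tumours. Of the other 11519 tested rows, 73.9% had a lower within-group r with the Il7r row than Bcl2l11 had. Over all 9 tumours without regard to group, r was -0.44. The negative sign of that pooled value comes with the difference between the group means.

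**Figure D2:**
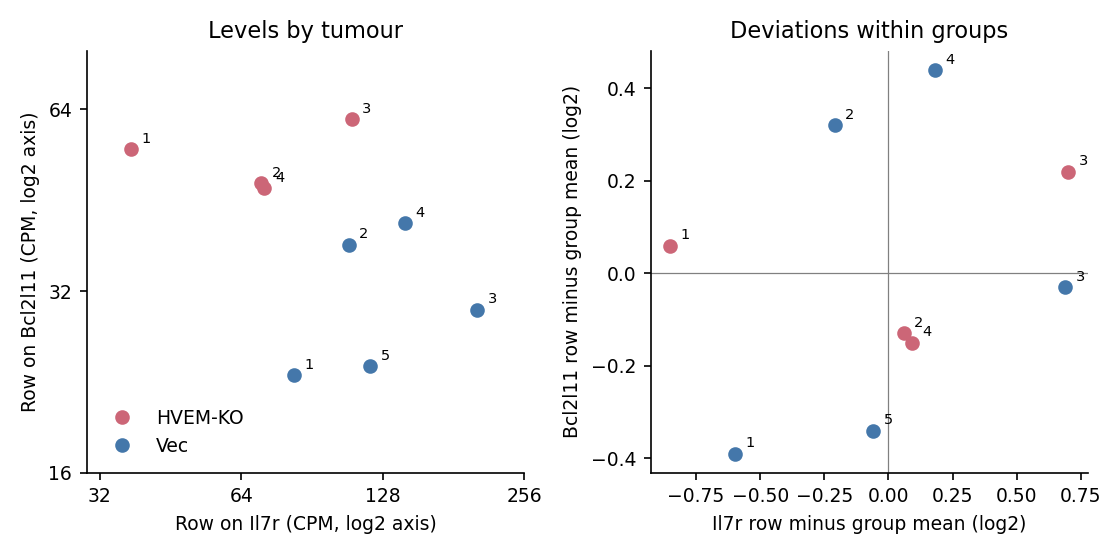
The row on Bcl2l11 against the row on Il7r, as CPM on log2 axes (left) and as log2 deviations from the group means (right), with each tumour numbered by replicate. The groups lie apart along the Bcl2l11 axis, while the deviations have an r of 0.28 (n = 9), or -0.15 without Vec 1 and Vec 5.

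Few partners of the 2 genes could be measured. Of 72 genes in the pathway lists, 20 had a tested row, and 0 of their rows were called. Among the genes without one were the cytokine Il7, the gamma chain Il2rg, Jak1, Jak3, Bcl2, Bcl2l1, Bax and Bak1. Over all rows tested the median log2 fold change was 0.01, and 0.08 with library size alone.

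In the IL-7 receptor system, rows on 8 of 16 genes were tested. Of these, 6 had a log2 fold change above 0 and 2 below, Il7r among the latter, and the median was 0.18. With library size alone, 7 were above 0. The signal transducer Stat5b averaged 106.5 ± 4.44 CPM (SD, n = 5) in Vec tumours against 104.9 ± 7.82 CPM (SD, n = 4) in HVEM-KO tumours, a difference of -0.02 ± 0.11 (log2, SE). Akt1, a survival kinase, was at 263.8 ± 13.8 and 282.1 ± 28.3 CPM (0.10 ± 0.12), and Pik3cd, a lymphocyte PI3-kinase subunit, had a log2 fold change of 0.26 ± 0.13. Socs1, a feedback inhibitor that IL-7 and interferon gamma both induce, was at 106.7, 102.6, 83.4, 105.2 and 100.4 CPM in Vec 1 to 5. It was at 198.0, 105.5, 244.0 and 88.7 CPM in HVEM-KO 1 to 4. HVEM-KO 1 and HVEM-KO 3 were thus high and HVEM-KO 2 and HVEM-KO 4 within the Vec range. HVEM-KO 1 had the lowest Il7r value and HVEM-KO 3 the highest Il7r value of its group.

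Il2rb, the beta chain shared by the IL-2 and IL-15 receptors, was the other cytokine receptor measured, of 8 listed. Its row was at 15.8, 49.6, 22.8, 41.0 and 12.3 CPM in Vec 1 to 5. In HVEM-KO 1 to 4 it was at 83.7, 43.6, 59.3 and 73.5 CPM. HVEM-KO 2 lay below Vec 2, and in every other pair the HVEM-KO tumour was higher (log2 fold change 1.20 ± 0.37, edgeR, adjusted p = 0.378). Without Vec 1 and Vec 5, the lowest for this row as for Bcl2l11, the log2 fold change was 0.78.

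Of 16 regulators of either gene, 4 had a tested row, with 1 value above 0 and 3 below. Foxp1, a forkhead protein that represses Il7r in naive T cells, was at 170.4, 115.4, 147.3, 128.1 and 198.0 CPM in Vec 1 to 5. It was at 94.5, 114.0, 109.7 and 93.2 CPM in HVEM-KO 1 to 4. All HVEM-KO tumours were below all Vec tumours, HVEM-KO 2 and Vec 2 by a narrow margin, a pattern that 1.76% of all rows had. The log2 fold change was -0.56 ± 0.17 (edgeR, adjusted p = 0.367) and -0.35 without Vec 1 and Vec 5. Nr3c1, the glucocorticoid receptor, which drives Il7r and Bcl2l11 in lymphocytes, had a log2 fold change of -0.24 ± 0.21. Ets1, a lymphoid transcription factor, had one of 0.23 ± 0.50 at about 2 CPM.

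In the BCL2 family, Mcl1 was the only survival gene measured of 7. Vec tumours averaged 397.7 ± 56.7 CPM and HVEM-KO tumours 425.8 ± 48.9 CPM (log2 fold change 0.10 ± 0.14, and -0.04 without Vec 1 and Vec 5). Of 8 BH3-only genes, 2 had tested rows, Bcl2l11 and Bmf, with 3 rows above 0, or 2 with DESeq2 size factors. The 2 rows on Bmf, a relative of BIM, had log2 fold changes of 0.01 ± 0.20 and 0.42 ± 0.32, the second on 227 reads in all. Of the genes of the pore and caspase steps, the apoptosome gene Apaf1 had 2 rows, both with a log2 fold change below 0. The one with more reads was at 75.4 ± 3.14 and 68.7 ± 8.10 CPM (-0.13 ± 0.13) and the other had a log2 fold change of -0.10 ± 0.33. Among 9 genes of naive and memory lymphocytes that go with Il7r, Bach2 and Cd44 were measured, at low levels, with group means of 1.11 to 8.17 CPM. The 2 rows on Bach2 had log2 fold changes of 0.84 ± 0.46 and 0.08 ± 0.41, and Cd44 had one of -0.79 ± 0.69.

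**Figure D3:**
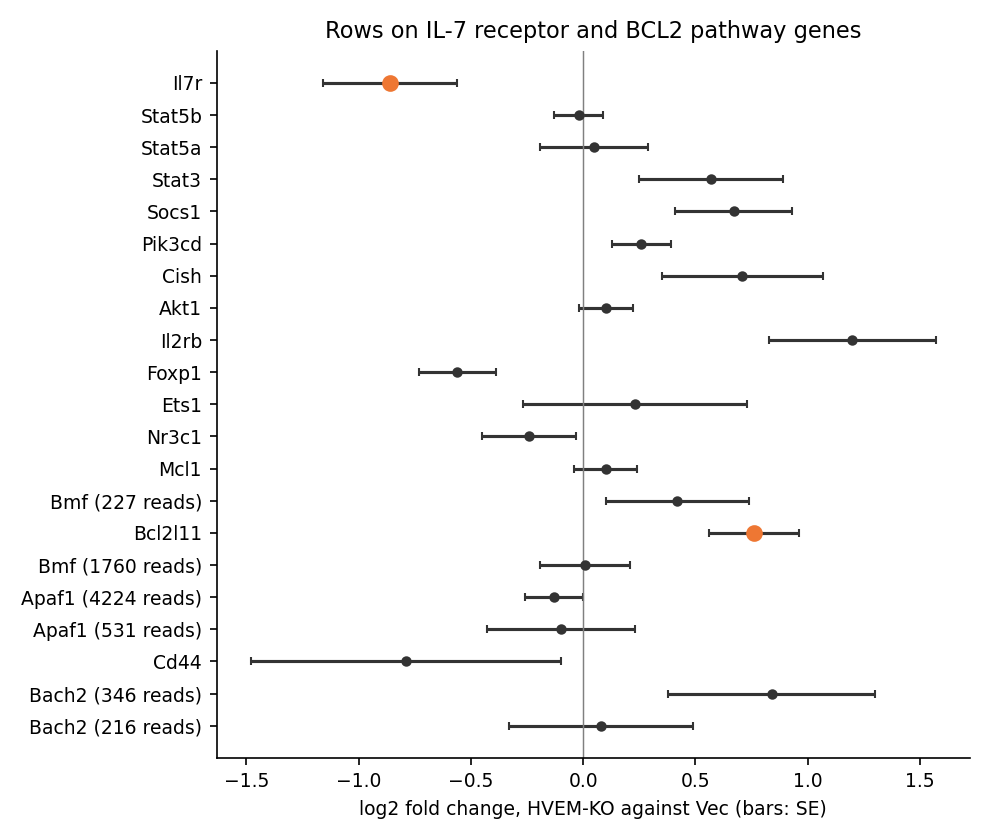
Log2 fold change of HVEM-KO against Vec tumours, with its SE, for most of the tested rows on genes of the pathway lists, with the rows on Il7r and Bcl2l11 in orange. Il7r (-0.86) and Cd44 (-0.79) have the lowest values shown, and Il2rb (1.20) the highest.

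Markers of the T lineage, to which EL4 cells belong, and of host cells were read in the same fit. None of their rows was called, and the summed level of every marker list overlapped between the groups. Rows on 7 of 14 T lineage genes were tested, 8 rows in all, with 2 above 0 and 6 below and a median of -0.40. Thy1 (-0.51), Lat (-0.46), Lck (-0.44) and Zap70 (-0.41) had the most CPM, while Cd8b1 (0.95 ± 0.40, edgeR, adjusted p = 0.439) and Cd3e (0.37), both at low levels, had the 2 values above 0. Of the marker rows only Lck and Zap70 had all HVEM-KO tumours below all Vec tumours, by narrow margins, as 1.76% of all rows had. Cd8b1 and Cd3e are named here after their values were seen. Summed, the list ran from 2910.7 to 5782.0 CPM in Vec tumours and from 2443.9 to 3696.4 CPM in HVEM-KO tumours. Fibroblast markers had 9 of 10 rows above 0, macrophage and monocyte markers 3 of 4 (4 with library size alone), endothelial markers 4 of 4, and natural killer and innate lymphoid markers 3 of 3. The medians were 0.61, 0.71, 0.35 and 0.65. Without Vec 1 and Vec 5 they were 0.24, 0.40, 0.39 and 0.27, and the T lineage median was -0.19. Fibroblast rows above 0 were then 7 of 10, and natural killer and innate lymphoid rows 2 of 3. Among fibroblast genes Col1a1 had a log2 fold change of 1.33 ± 0.50, Sparc 0.36 ± 0.38, Bgn 0.42 ± 0.47 and Postn -0.12 ± 0.41. The Col1a1 row was at 4547.6 to 7735.1 CPM in HVEM-KO 1 to 3. In HVEM-KO 4 it was at 824.4 CPM, below all Vec tumours (lowest 919.2 CPM, in Vec 3). Sparc and Bgn turned to -0.02 and -0.04 without Vec 1 and Vec 5. Csf1r, the receptor of macrophage growth factors, had one of 0.82 ± 0.34, Ly6c2 -0.04 ± 0.34, Cd163 0.76 ± 0.61 and Mertk 0.65 ± 0.38. Klrd1 of natural killer cells had one of 0.65 ± 0.33 and the rows on Rora 0.81 ± 0.54 and 0.32 ± 0.35, the latter -0.05 without those tumours. The endothelial rows on Pecam1 had 0.39, 0.31 and 0.30, and Vwf had 0.90. Summed ranges in Vec and HVEM-KO tumours were 2691.9 to 9627.8 and 3150.1 to 14079.0 CPM for fibroblasts, and 97.8 to 240.2 and 176.3 to 305.2 CPM for macrophages and monocytes. They were 12.4 to 33.4 and 29.8 to 39.0 CPM for natural killer and innate lymphoid cells, and 167.4 to 299.3 and 266.5 to 303.3 CPM for endothelium. Neutrophils were represented by 2 rows on Csf3r, with a median of 0.83 (26.2 to 120.1 and 78.5 to 131.5 CPM summed), dendritic cells by Itgax (0.98, 10.9 to 32.5 and 24.6 to 54.7 CPM) and B cells by Pax5 (-0.09, 7.61 to 17.2 and 6.88 to 17.5 CPM). Without Vec 1 and Vec 5 these 3 values were 0.39, 0.65 and -0.28. The other markers on the lists had no tested row, so whether defining markers such as Adgre1 were at 0 was not measured.

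Each row was also set against the summed markers inside the groups. For the Bcl2l11 row Pearson's r was 0.76 with the markers of fibroblasts (exact permutation p = 0.0205, n = 9, rho = 0.85 with exact permutation p = 0.00833) and 0.89 with those of natural killer and innate lymphoid cells (exact permutation p = 0.0243, rho = 0.85 with p = 0.0354). Its r was 0.85 with neutrophil (exact permutation p = 0.0233, rho = 0.85 with p = 0.0278), 0.83 with endothelial (exact permutation p = 0.0361, rho = 0.83 with p = 0.0361) and 0.77 with dendritic cell markers (exact permutation p = 0.0323, rho = 0.82 with p = 0.0319). Over the family of 17 relations, none of these passed (adjusted p = 0.123 for each, exact permutation with Benjamini-Hochberg adjustment). The share of all tested rows with so high an r was not counted. These values are thus not shown to be particular to these markers. In the endothelial sum the row of most CPM, on Pecam1, held 58.1% of the CPM and had an r of 0.80. The other rows on Pecam1 had an r of -0.21 and 0.52, and Vwf had 0.45. Vec 1 and Vec 5 were lowest in the Bcl2l11 row and in the natural killer and innate lymphoid, dendritic, neutrophil and endothelial sums. Without them r was 0.71 for fibroblast and 0.65 for natural killer and innate lymphoid markers (n = 7). It was 0.62 for neutrophil, 0.57 for dendritic and 0.48 for endothelial markers. The lowest exact permutation p among these r values was 0.125. Without the 2 tumours farthest from each marker's own median, r was 0.64, 0.65, 0.62, 0.88 and 0.48 in the same order (n = 7, lowest exact permutation p = 0.0278, for dendritic cells). For natural killer and innate lymphoid, neutrophil and endothelial markers those 2 tumours were again Vec 1 and Vec 5. Their values therefore repeat the ones before and are no second check. With the T lineage sum the Bcl2l11 row had an r of -0.56 (exact permutation p = 0.182, rho = -0.43 with p = 0.297), and -0.17 without Vec 1 and Vec 5.

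For the Il7r row Pearson's r over the 9 tumours ran from 0.13 to 0.40. It ranged more widely without the 2 tumours farthest from each marker's own median (n = 7). The lowest r was then -0.46, with fibroblast markers (exact permutation p = 0.389). The highest was 0.82, with macrophage and monocyte markers (exact permutation p = 0.0833). With the T lineage sum r was 0.15 (exact permutation p = 0.685, rho = 0.27 with p = 0.531), or 0.53 without Vec 1 and Vec 5 (exact permutation p = 0.278, n = 7). With fibroblast markers r was 0.16 (exact permutation p = 0.714, rho = 0.20 with p = 0.637), and -0.10 without those tumours. Over the 9 tumours the highest r was 0.40, with natural killer and innate lymphoid markers (exact permutation p = 0.277, rho = 0.42 with p = 0.252), and it was 0.14 without Vec 1 and Vec 5. The difference between the 2 rows in these correlations was not tested. For the macrophage and monocyte sum, in which Ly6c2 held 66.0% of the CPM, r was 0.42 with Bcl2l11 (exact permutation p = 0.392, rho = 0.28 with p = 0.512) and 0.38 with Il7r (exact permutation p = 0.315, rho = 0.50 with p = 0.219). These became -0.21 and 0.54 without Vec 1 and Vec 5. Row by row over the 9 tumours, r with Bcl2l11 was 0.09 for Ly6c2, 0.88 for Csf1r, 0.61 for Cd163 and 0.57 for Mertk. With Il7r it was 0.19, 0.37, 0.47 and 0.18 in the same order. The part of host cells in the difference of either row between the groups was not tested.

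**Figure D4:**
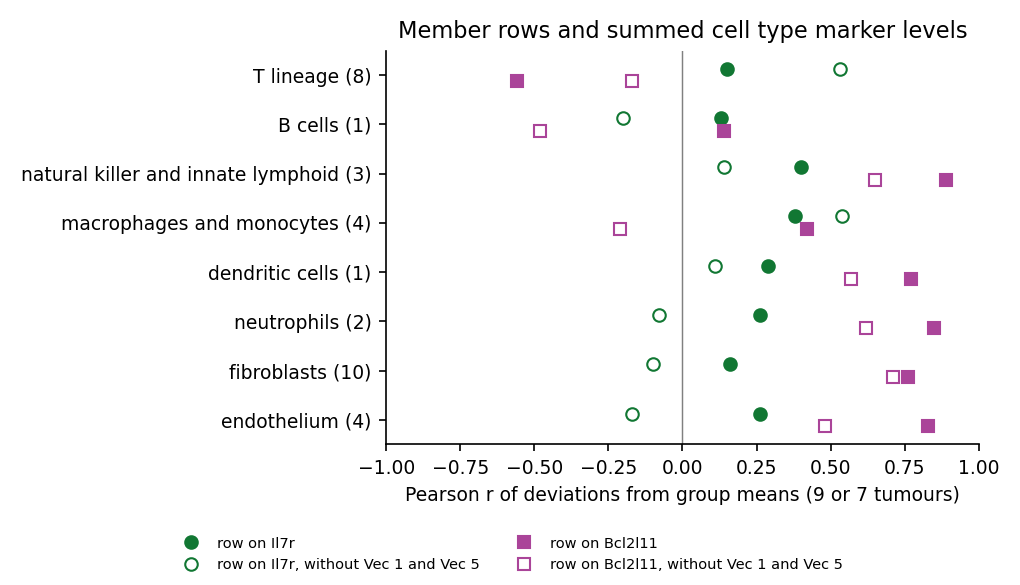
Pearson's r between each row and the summed level of each marker list (number of rows in brackets), as deviations from the group means, over 9 tumours (filled) and over 7 without Vec 1 and Vec 5 (open). The Bcl2l11 row has high values for natural killer and innate lymphoid (0.89), neutrophil (0.85) and endothelial markers (0.83), all lower without those 2 tumours.

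Likeness was also searched over 4340 rows that were placed on a named protein-coding gene and averaged at least 1 on the log2 CPM scale, by Pearson's r of log2(CPM + 0.5) over the 9 tumours. It includes the difference between the groups and is a description of the extremes of many rows. The rows most like Bcl2l11 were on H2-DMa, which helps to load peptides on MHC class II (r = 0.97), Sema4a, a semaphorin of immune cells (0.96), and Irf8, a transcription factor of monocytes, dendritic cells and B cells (0.96). Irf8 averaged 84.2 CPM in Vec tumours against 158.5 CPM in HVEM-KO tumours. A second row on H2-DMa had an r of 0.95 and a second row on Sema4a one of 0.96. The most opposed rows were on Rbm12b1 (-0.96), Gle1, an mRNA export factor (-0.95), and Kif4, a mitotic kinesin (-0.95).

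The rows most like Il7r were on Ogg1, a DNA repair glycosylase (r = 0.90), Alms1, a centrosome protein (0.89), and Zfp607a (0.89). The rows on Alms1 and Zfp607a were at 7.08 and 7.13 CPM in Vec tumours. Here second rows on the same genes did not bear out the likeness, with an r of 0.56 for Alms1 and of -0.16 for Zfp607a. The most opposed were the DNA methyltransferase Dnmt3a (-0.89), Zc3h3 (-0.89), whose 2 further rows had -0.50 and -0.18, and Pfas, an enzyme of purine synthesis (-0.88).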

How the data were processed

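For the 9 tumour libraries the authors deposited raw whole-number counts, 1 row per gene identifier (build mm10, per the submitters' processing notes). Which aligner, counter and gene models they used is not given in the sources used here. Per the labels' protocols, RNA came from TRIzol and libraries from a SMARTER mRNA-Seq kit. The members, lists and tests were chosen with earlier results of these data known.

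The locus of each nuclear row was inferred with GENCODE vM21 (GRCm38). Row exons were moved by up to 2 Mb in steps of 250 bp, and a hidden Markov model (switch penalty 20) took the displacement whose overlap with protein-coding exons best accounted for the row totals. It gave 102 stretches. Rows with a posterior of at least 0.99 within 1000 bp, at least 100 bp and 90% of the overlap on 1 gene, and the same gene 250 bp either way were placed: 7057 of 50488. On simulated data, 99% of 5879 rows were found within 1000 bp. The simulation covered 3 chromosomes and drew row totals from the model fitted to these data. It therefore measured recovery where that model holds, and did not check the names of real rows.

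Counts were tested with edgeR 4.0.16 (R 4.3.3; TMM, filterByExpr, robust quasi-likelihood, Benjamini-Hochberg adjustment over 11521 rows, no covariates). On simulated counts for 11521 rows it recovered 88.0% of 200 rows changed 4-fold, with 8 false calls. The 2 member rows differed less, by 1.82-fold and 1.69-fold, and this recovery does not describe changes of that size. DESeq2 1.42.0 and limma 3.58.1 were alternatives. Within-group correlations used deviations from group means and every reordering of tumours within groups. Of each list the 4 rows with most CPM were named. Rows for likeness had to lie on genes other than predicted ones (Gm and Rik names). No 2 libraries agreed within sampling noise (lowest chi-square per degree of freedom 11.2, Vec 1 and Vec 5). Counting errors do not cover PCR copies. Some genes of the lists enter the counts but are not reported here by name.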

Additional observations from a re-analysis of the deposited data

Results flagged for a closer look

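Of 88 sets of values (a row in a group), 5 had an extreme tumour, judged by its gap to the nearest value as a share of the whole range. Chance gives about 1 in 20, or 4.4. Neither the Il7r row, the Bcl2l11 row nor their ratio was among them. For Stat5b in HVEM-KO tumours the share was 0.868 (HVEM-KO 3 at 116.6 CPM, the rest at 100 to 102.2). For Akt1 in HVEM-KO tumours it was 0.845 (HVEM-KO 4 at 240.3 CPM, the rest at 292.7 to 302.3). For Socs1 in Vec tumours it was 0.729 (83.4 CPM in Vec 3, 100.4 to 106.7 in the others). In Vec 5, Lck was high with 0.786 (601.9 CPM, 361.1 to 412.7 in the others) and Cd44 with 0.723 (3.75 CPM, 1.04 to 1.79 in the others).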

How the results depend on the processing

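The log2 fold changes of both rows kept their sign under all 17 alternatives, from -1.14 to -0.63 for Il7r and from 0.54 to 0.88 for Bcl2l11, and each moved by less than the spread between replicates. Their log2 ratio ran from 1.37 to 1.83 over 13 alternatives. The within-group correlation of 0.28 was 0.04 to 0.42 without 1 tumour each, and turned to -0.15 without Vec 1 and Vec 5. The count of called rows, 0 with edgeR, was 307 without a low-count filter and 81 with DESeq2, and 0 to 1 without 1 tumour each (1 without HVEM-KO 2 and 1 without HVEM-KO 4). The cause was not tested. List rows above and below 0, 38 and 19, ran from 33 to 40 and from 17 to 28 over 18 alternatives, deposited names included. These 57 entries are 56 distinct rows, since Il7r stands in 2 lists, and both rows chosen for their difference are among them. No paired analysis was possible because the labels give no replicate numbers that the groups share. With 2343 reads in the Bcl2l11 row over 9 libraries and many partners without a placed row, the depth and the placement limit what could be compared.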
